A study of Rattus with 9 samples.

Results

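The genes of glycolysis and of glucose and lactate transport were followed in the rat bile duct after liver transplantation (LT). The list held 33 genes, chosen by symbol for their place in the pathway, and 32 of them were among the 23999 features of the single-cell RNA sequencing (scRNA-seq) matrices. Gapdh was not among the features and has no value here. Of the 32, 30 had enough unique molecular identifiers (UMIs, each marking 1 captured transcript) to be tested over all cells. Eno2 with 33 UMIs and Slc2a3 with 1 UMI in 139805 cells were not tested.

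The bile ducts came from 9 samples. Sham was represented by 3 samples. The group named ctrl had received a liver graft with ischemic injury, and the group named treat had received the same graft together with ligation of the splenic and gastroduodenal arteries, which raises the arterial flow to the liver. Each arm was sampled once at day 1, once at day 3 and once at day 7 post-LT, so both arms share the transplantation and the injury, and the 6 samples of both arms are called grafts below. The study used Sprague-Dawley rats, and the labels give no age, no sex and no genotype. Each graft sample was sequenced as 3 libraries, apart from treat day 3, of which 2 were analysed here. The labels do not say whether different rats gave the samples or their libraries. The p-values therefore measure only the spread between these samples, which may be technical. Only sham has more than 1 sample of the same kind. Among the grafts, with 1 sample per arm and day, the spread is what the day and arm terms of the fit leave over.

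Glycolysis splits glucose into pyruvate in the cytosol. Glucose enters through carriers such as Slc2a1, is trapped by hexokinases, is committed by phosphofructokinase and is then split and oxidized, and Pgk1 and Pkm carry the steps that yield ATP. Pyruvate can be turned into lactate by lactate dehydrogenase and exported through Slc16a3, or it can enter the mitochondrion through pyruvate dehydrogenase, which the Pdk kinases inhibit. Many genes of the pathway are known targets of the hypoxia-inducible factor, and the bile duct depends on the hepatic artery for its blood.

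The samples held between 2286 cells (sham 1) and 31762 cells (ctrl day 7), with 9319161 to 193267997 UMIs in cells and a median of 2775.5 to 5254 UMIs per cell. Cells were clustered without the members, and 16 cell types were named from markers. Such names mean only that the cells were like that type, for example like biliary epithelial cells (BEC), endothelial cells (EC) or vascular smooth muscle cells (VSMC). The 3 BEC clusters had 9 or 10 of the 10 BEC markers above the other cells. Sham 1 stood apart, with 88 fibroblasts (3.85% of its cells) against 34.8% and 46.9% of the cells of sham 2 and sham 3. In ctrl day 3, the limit on hemoglobin transcripts removed 44.5% of the barcodes, and 2 of its 3 libraries kept 414 and 323 cells. Pairs of libraries shared at most 0.93% of the barcodes of the smaller one. Neutrophils made up 0.108% to 3.06% of the sham cells and 3.66% to 32.0% of the graft cells.

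Where the pathway was expressed was described first, as unscaled counts per 1000000 UMIs (CPM) of each cell type in each sample with at least 20 cells. Neutrophils had the highest median level of 7 members, monocytes of 6 and NK cells of 4. Slc16a3, the carrier that exports lactate from glycolytic cells, lay at 245 to 853 CPM in neutrophils (median 351), above the 32.7 to 78.7 CPM of dendritic cells (DC), the next type in the order. DC and monocytes, at medians of 43.2 and 43.2 CPM, could not be ordered. Pdk3, a kinase that inhibits pyruvate dehydrogenase, showed the same gap, with 76.4 to 161 CPM in neutrophils and 11.2 to 32.0 CPM in monocytes. Hk3, the hexokinase of myeloid cells, was highest in monocytes (median 51.9 CPM, range 0 to 177) and macrophages (median 48.1 CPM, range 8.36 to 122), whose ranges overlapped widely. Slc2a1, the basal glucose carrier, was also highest in monocytes (median 83.0 CPM), with ranges that overlapped those of neutrophils and DC. The abundant enzymes of the later steps were expressed in every type. Ldha, which makes lactate from pyruvate, had its highest median in NK cells (1317 CPM, range 1087 to 1680), followed by monocytes (1222 CPM) with an overlapping range.

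Other members had their highest median in other cell types, among them types of the duct wall. A first rank among the types does not make a member the main isoform of that type. Ldhb, the lactate dehydrogenase subunit that favours pyruvate, was highest in EC (88.3 to 188 CPM, median 118) and VSMC (75.3 to 192 CPM, median 117), which did not differ beyond their spread. EC also held the highest median of Hk1, the housekeeping hexokinase, with 11.7 CPM, and of Pdk4, with 3.75 CPM. BEC had the highest median of Pgk1 (577 CPM), with a range from 219 to 5173 CPM that was wider than that of any neighbour in the order. Monocytes and neutrophils, at medians of 561 and 557 CPM with overlapping ranges, could not be ordered against BEC. BEC were also first for Aldoc, a minor aldolase (median 11.0 CPM), and for Pfkfb2 (median 6.07 CPM), which makes and removes the activator of phosphofructokinase. Fibroblasts were first for Pgm1 and Gys1, which lead glucose into glycogen, at medians of 31.4 and 7.74 CPM. Pgm2 was highest in lymphatic EC (63.9 to 116 CPM), with EC next at 47.8 to 98.3 CPM. VSMC and fibroblasts had nearly the same median of Pfkm, the muscle phosphofructokinase, at 13.4 and 13.4 CPM. DC had the highest median of Eno3, the muscle enolase (36.1 CPM), and macrophages of Pfkl, the liver phosphofructokinase (48.2 CPM). The ranges of Aldoc, Gys1 and Pfkl overlapped those of the next type, at medians of 10.0 (fibroblasts), 6.95 (VSMC) and 45.5 CPM (BEC). Eno2, the neuronal enolase, had its highest sample at 1.55 CPM in fibroblasts.

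Over all cells, at least 1 gene of most steps of glycolysis was higher in the grafts than in sham. With edgeR's quasi-likelihood test and Benjamini-Hochberg adjustment over all 16473 genes, called at an adjusted p under 0.05, 15 of 30 members were called, 14 higher and 1 lower, where 17.7% of all genes were called and 9.09% of all genes were called higher. The median log2 fold change was 0.85 for the members and -0.06 for all genes. All 6 grafts lay above all 3 sham samples or below them for 11 of 30 members, where 22.2% of all genes did not overlap. Values of single samples are given from here on as CPM scaled by the trimmed mean of M values (TMM). In sums over all cells, a change in which cells were present and a change in the RNA of a cell cannot be told apart.

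Entry and trapping of glucose came first. Slc2a1 was at 13.8, 16.0 and 15.4 CPM in sham, at 161, 64.5 and 49.0 CPM in ctrl days 1, 3 and 7, and at 31.3, 48.9 and 35.0 CPM in treat. The groups did not overlap, and Slc2a1 rose by 1.93 on the log2 scale (SE 0.358, adjusted p = 0.0219). Hk3 was at 0.977, 1.35 and 0.639 CPM in sham and at 8.26, 43.6, 28.2, 9.77, 50.3 and 28.8 CPM in the grafts in the same order, with the highest samples at day 3 of each arm. It had the largest change among the members, 4.53 on the log2 scale (SE 0.298, adjusted p = 0.00714). Hk2, the hexokinase bound to mitochondria, had a log2 fold change of 0.49 (adjusted p = 0.292), and Hk1 of -0.54 (adjusted p = 0.281). Neither was called, and sham 1 was apart from the other sham samples in both, with 57.3 against 152 and 133 CPM of Hk2 and 12.8 against 5.57 and 5.10 CPM of Hk1.

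In the early steps of the pathway, Gpi, which isomerizes the trapped sugar, was at 107 to 119 CPM in sham and at 172 to 441 CPM in the grafts and rose by 1.06 on the log2 scale (SE 0.202, adjusted p = 0.0226). Of the phosphofructokinases, Pfkl rose (log2 fold change 1.15, SE 0.257, adjusted p = 0.0328) and Pfkm fell (log2 fold change -1.07, SE 0.226, adjusted p = 0.029). The platelet form Pfkp, at a log2 fold change of 0.44, was not called. Pfkfb3, the inducible enzyme that raises the activator of phosphofructokinase, rose by 1.22 on the log2 scale (adjusted p = 0.0308), although treat day 1 at 17.9 CPM lay within the sham range of 12.6 to 18.1 CPM. Pfkfb2 and Pfkfb4, related enzymes, had log2 fold changes of -0.34 and 0.59 and were not called. Aldoa, the main aldolase, rose by 0.96 on the log2 scale (adjusted p = 0.0416), with sham 1 at 793 CPM above treat day 7 at 754 CPM. Aldoc had a log2 fold change of 0.17 and was not called, and its sign turned when library size replaced TMM.

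Most enzymes from triose phosphate to lactate rose, namely Tpi1, Pgk1, Pgam1, Eno1, Eno3, Pkm and Ldha. Pgk1, the first step that yields ATP, was at 185, 209 and 179 CPM in sham, at 3766, 948 and 493 CPM in ctrl days 1, 3 and 7, and at 671, 573 and 381 CPM in treat. All 6 grafts lay above sham, the highest at day 1 of each arm, and Pgk1 rose by 2.13 on the log2 scale (SE 0.373, adjusted p = 0.0198). Ldha was at 306, 331 and 284 CPM in sham and at 2185, 1309, 947, 994, 899 and 642 CPM in the grafts. It rose by 1.82 on the log2 scale (SE 0.166, adjusted p = 0.00809), with no overlap. Tpi1, which interconverts the triose phosphates, rose by 1.65, Eno1, the common enolase, by 1.48, Pgam1, a mutase, by 1.33, and Pkm, the last ATP step, by 1.24 on the log2 scale. Eno1, Pgam1 and Pkm did not overlap between grafts and sham, whereas for Tpi1 treat day 7 (22.04 CPM) lay below sham 1 (25.6 CPM). Eno3 rose by 1.09 on the log2 scale (adjusted p = 0.0367). Ldhb was not called (log2 fold change -0.23). Near-identical copies and processed pseudogenes are known for several of these enzymes, among them Aldoa, Pgk1, Pgam1, Eno1 and Ldha, and reads that such copies share cannot be told apart here.

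The branches were less uniform. Slc16a3 had a log2 fold change of 1.38 (adjusted p = 0.074) and Slc16a1, a carrier that also takes lactate up, of 0.50, and neither was called. Of the kinases that hold pyruvate back from the mitochondrion, Pdk3 rose by 0.97 on the log2 scale (adjusted p = 0.0186), from 9.04 to 12.3 CPM in sham to 16.6 to 29.8 CPM in the grafts. Pdk1, with a log2 fold change of 0.74 (adjusted p = 0.0598), Pdk2, with -0.97 (adjusted p = 0.06), and Pdk4, with -0.77, were not called, though all 6 grafts lay below sham for Pdk2. The entry to glycogen, Pgm1, Pgm2 and Gys1, had log2 fold changes of 0.26, 0.08 and 0.61 and was not called. The plot of log2 fold changes by cell type shows these members beside the 7 types that could be fitted on all samples.

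**Figure D1:**
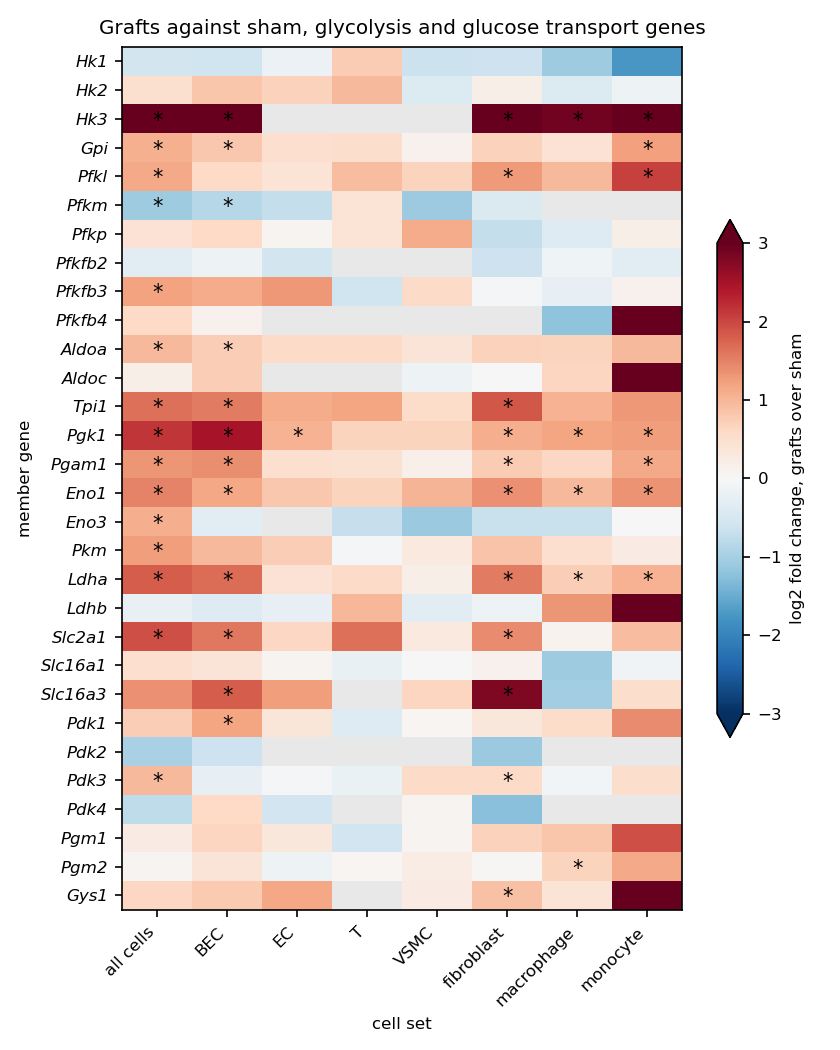
Log2 fold change of each member, grafts over sham, in all cells and in 7 cell types (colour scale limited to 3 in either direction, grey where not tested, asterisk at an adjusted p under 0.05). Members called by edgeR were most frequent in all cells (15), BEC (12) and fibroblasts (11), and edgeR called none in T cells or VSMC. Monocyte values at the limit of the scale for Pfkfb4, Aldoc, Ldhb and Gys1 come from sham samples with 0 UMIs.

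The count over all cells rested on the sham samples and on single days. Without sham 2 or without sham 3 it was 0, and 0.0% of all genes were called. Without ctrl day 3 it was 8 (6.05% of all genes), without treat day 3 it was 5 (4.24%), and without ctrl day 7 or treat day 7 it was 4 (1.63% and 1.85%). The log2 fold change of Ldha stayed at 1.72 to 1.91 without any 1 sample. With library size in place of TMM, which moved the median of all genes by -0.32, 8 members were higher and 3 lower, against 22.7% of all genes, and Aldoc, Pgm1 and Pgm2 changed sign.

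The same contrast was then taken within cell types. Of 186 member and cell type pairs, 36 were called, 35 higher and 1 lower, against 7.67% of all gene and cell type pairs. They comprised 16 genes. Pgk1 was called in 5 types and Eno1 and Ldha in 4 types each, of 7 tested. Hk3 was called in the 4 types where it was tested. In BEC and fibroblasts it had 0 and 1 UMIs in sham and entered the test through the grafts, so these pairs among the 36 carry less weight. The number fell to 9 without sham 2, 3 without sham 3, 20 without ctrl day 1 and 21 without treat day 7, where 1.67%, 1.21%, 3.5% and 2.8% of all pairs were called.

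BEC, the lining of the duct, had 12 of 30 members called, 11 higher and 1 lower, against 12.8% of all genes in BEC. Among the 11 was Hk3, which had 0 UMIs in sham BEC, entered the test through the grafts and stayed called in 1 of the 9 fits without 1 sample. With library size in place of TMM, 6 members were higher and 2 lower, against 15.9% of all genes. After the profile of empty barcodes was subtracted, 6 of 29 were called, all higher, against 9.97% of all genes: Eno1, Ldha, Pdk1, Pgam1, Pgk1 and Tpi1. Pgk1 was at 181, 216 and 228 CPM in the sham BEC. It was at 6299, 1888 and 574 CPM in ctrl days 1, 3 and 7, and at 964, 636 and 430 CPM in treat. Every graft was above every sham sample, and the lowest graft was treat day 7. Pgk1 rose by 2.48 on the log2 scale (SE 0.363, adjusted p = 0.0106). Ldha was at 194, 279 and 270 CPM in sham, at 2770, 1559 and 502 CPM in ctrl, and at 692, 408 and 345 CPM in treat, again without overlap, and rose by 1.68 (SE 0.279, adjusted p = 0.0151). Eno1, at 185 to 216 CPM in sham and 265 to 1279 CPM in the grafts, rose by 1.16. Pgam1 rose by 1.39 and Tpi1 by 1.56 on the log2 scale. Gpi and Aldoa, of the early steps, rose by 0.81 and 0.73.

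Of the carriers in BEC, Slc2a1 was at 20.5, 21.9 and 19.97 CPM in sham and at 259, 134 and 43.5 CPM in ctrl, but at 30.4, 28.5 and 29.98 CPM in treat. It rose over all grafts (log2 fold change 1.58, SE 0.379, adjusted p = 0.0369). Slc16a3 was at 9.72, 11.6 and 6.18 CPM in sham, at 116, 84.5 and 34.5 CPM in ctrl, and at 9.50, 10.5 and 19.3 CPM in treat, so that treat days 1 and 3 lay within the sham range. Its log2 fold change over all grafts was 1.82 (SE 0.476, adjusted p = 0.0469). Pdk1 was at 6.77 to 7.38 CPM in sham, 11.4 to 55.6 CPM in ctrl and 8.68 to 10.7 CPM in treat, and rose by 1.18 (adjusted p = 0.0483). Pfkm was the member that fell in BEC (log2 fold change -0.86, adjusted p = 0.0315), from 6.94 to 9.76 CPM in sham to 3.55 to 6.43 CPM in the grafts. Hk3 had 0 UMIs in the BEC of all 3 sham samples and 4 to 26 UMIs in those of the grafts. Against a floor of 3 UMIs over the sham group, it was at least 6.99-fold higher in unscaled CPM. Beside it, the summed level of 10 neutrophil markers in BEC was 14.95 to 28.2 CPM in sham and 88.1 to 445 CPM in the grafts, with 3 or 4 markers at 0 in sham and at most 1 at 0 in a graft. That of 8 monocyte markers was 2452 to 2809 CPM in sham and 3395 to 5629 CPM in the grafts. Their part in the Hk3 result was not tested.

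**Figure D2:**
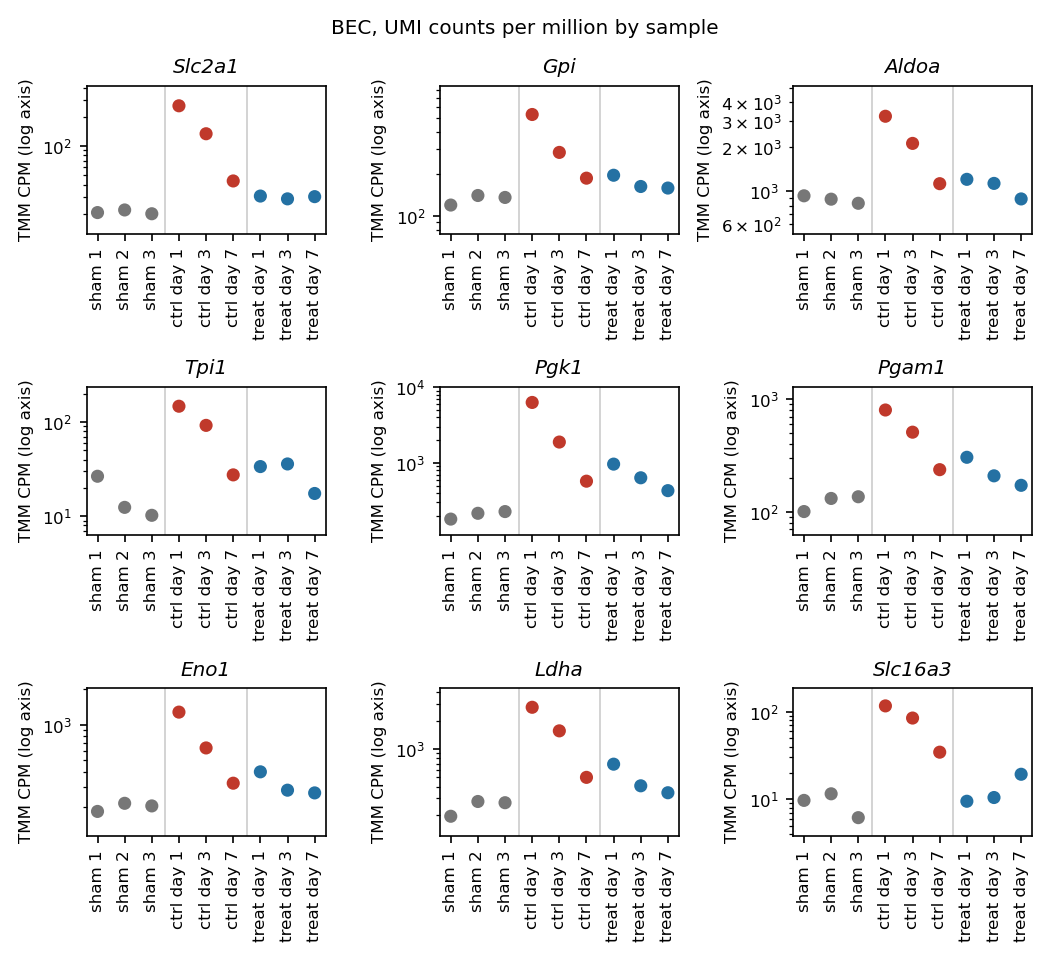
TMM-scaled CPM of 9 members in BEC, 1 point per sample on log axes (sham grey, ctrl red, treat blue). Pgk1 and Ldha lie above sham in all 6 grafts, while Slc16a3 in treat days 1 and 3 lies within the sham range.

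The BEC of different stages came from different clusters. Cluster 5 held 76.5% of the sham BEC, clusters 5 and 12 held 52.9% and 43.0% of those at day 1, and cluster 3 held 70.7% at day 3 and 90.5% at day 7. These shares join both arms. At day 3, cluster 3 held 212 of 629 BEC in ctrl, where cluster 12 held 243, and 1891 of 2347 in treat. The 3 libraries of ctrl day 1 differed, with 1772, 6710 and 7650 unscaled CPM of Pgk1 in BEC, and 31.4, 416 and 232 unscaled CPM of Slc2a1. The first of them, at 31.4 CPM of Slc2a1, was near the 3 libraries of treat day 1 at 23.9, 29.3 and 29.3 CPM, and the other two lay far above.

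Fibroblasts, which lay down the matrix of the duct wall, had 11 of 29 members called, all higher, against 16.6% of all genes in fibroblasts, and with library size 8 were higher and 1 lower, against 17.6%. Ldha was at 212, 286 and 207 CPM in sham, at 2829, 841 and 441 CPM in ctrl and at 863, 322 and 346 CPM in treat. The groups did not overlap, and Ldha rose by 1.56 (SE 0.258, adjusted p = 0.00694). Slc2a1, at 2.61, 3.76 and 4.33 CPM in sham, was at 35.2, 12.1 and 8.52 CPM in ctrl and 15.9, 4.86 and 5.13 CPM in treat. It also did not overlap and rose by 1.43 (SE 0.2, adjusted p = 0.0038). Tpi1 rose by 1.86, Eno1 by 1.37, Pfkl by 1.27, Pgk1 by 1.09, Gys1 by 0.89, Pgam1 by 0.77 and Pdk3 by 0.57 on the log2 scale. Slc16a3 was at 1.31, 0.246 and 0.469 CPM in sham and at 33.4, 12.9 and 4.84 CPM in ctrl, but at 0.625, 0.873 and 0.732 CPM in treat. Its log2 fold change over all grafts, 2.81 (SE 0.6, adjusted p = 0.0175), therefore joined ctrl samples far above sham with treat samples inside the sham range. The ctrl libraries with at least 20 fibroblasts differed, at 6.13 and 84.2 unscaled CPM on day 1 and 11.3 and 57.3 on day 3. On day 7 they were at 1.15, 12.1 and 2.79. The libraries of treat lay at 0 to 1.43. Hk3 had 1 UMI in sham fibroblasts and 0 to 11 UMIs in a graft, 41 in all, so that it entered the test through the grafts. The ratio of its pooled UMI shares was 19.04, with an exact 95% interval of 3.23 to 770 for counting error only. Cluster 9 held 65.9% of the sham fibroblasts, cluster 8 held 97.0% of those at day 1, and cluster 7 held 85.8% and 96.8% at days 3 and 7. The 11 calls fell to 5 after the profile of empty barcodes was subtracted, against 12.3% of all genes: Eno1, Gys1, Ldha, Pfkl and Tpi1.

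Macrophages had 5 of 27 members called, all higher, against 10.7% of all genes in macrophages. Hk3 was at 9.75, 11.7 and 8.19 CPM in sham, at 38.2, 62.0 and 94.2 CPM in ctrl and at 41.6, 141 and 118 CPM in treat. It did not overlap and rose by 2.89 (SE 0.268, adjusted p = 0.00603). Pgk1 rose by 1.18, Eno1 by 0.98, Ldha by 0.73 and Pgm2 by 0.66. Summed monocyte markers in macrophages were 6237 to 10101 CPM in sham and 6115 to 18996 CPM in the grafts, and their part in the result was not tested. Cluster 23 held 66.3% of the sham macrophages, cluster 18 held 49.6% of those at day 1, and cluster 10 held 63.9% and 56.8% at days 3 and 7. Taken by arm, cluster 18 at day 1 held 537 of 755 macrophages in ctrl and 395 of 1124 in treat.

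Monocytes were few in sham, with 52, 46 and 21 cells. They had 7 of 27 members called, all higher, against 2.87% of all genes in monocytes. Hk3 was at 0, 14.8 and 9.70 CPM in sham, from 0, 3 and 1 UMIs, and at 49.1 to 210 CPM in the grafts, and rose by 3.86 (SE 0.582, adjusted p = 0.00124). Pfkl was at 20.8, 9.88 and 9.70 CPM in sham, from 7, 2 and 1 UMIs, and at 31.3 to 102 CPM in the grafts, without overlap. It rose by 2.05 (SE 0.402, adjusted p = 0.00871). Eno1 rose by 1.35, Pgk1 by 1.26, Gpi by 1.23, Pgam1 by 1.14 and Ldha by 1.04. Cluster 4 held 55.5% of the sham monocytes, cluster 13 held 88.9% of those at day 1, and cluster 4 held 79.7% and 96.5% at days 3 and 7. Taken by arm, cluster 4 at day 3 held 441 of 1267 monocytes in ctrl and 3106 of 3186 in treat. The estimated share of UMIs that matched the profile of empty barcodes was 41.6% and 44.7% in the macrophages of ctrl and treat day 1, and 45.5% and 27.4% in the monocytes. After that profile was subtracted, Hk3 was the member called higher in either type, and Slc16a3 was called lower in macrophages, where 1.23% of all genes in macrophages and 0.394% in monocytes were called. Under the alternatives, subtraction among them, monocyte Pfkl lay at 1.81 to 2.18, Eno1 at 1.08 to 1.45, Pgk1 at 0.79 to 1.48 and Ldha at 0.78 to 1.13. Macrophage Eno1 lay at 0.73 to 1.14, whereas Pgk1 fell as low as 0.50 and Ldha as low as 0.06.

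EC, which line the vessels, had 1 of 25 members called, near the 3.53% of all genes in EC. Pgk1 was at 214, 310 and 261 CPM in sham and at 1388, 556, 320, 673, 383 and 351 CPM in the grafts, and rose by 1.04 (SE 0.221, adjusted p = 0.0381). After the profile of empty barcodes was subtracted, 0 of 24 members were called in EC, against 208 of 9679 genes. The log2 fold change of Pgk1 lay at 0.91 to 1.53 under the alternatives and at 0.87 to 1.19 without any 1 sample. In VSMC, the muscle of the vessel wall, 0 of 26 members were called by edgeR (4 at an unadjusted p under 0.05, 1 called by DESeq2), where 1.53% of all genes were called. In T cells it was 0 of 22 (8 at an unadjusted p under 0.05, 1 called by DESeq2), where 1.81% were called. The median log2 fold change of the members was 0.45 in EC, 0.20 in VSMC and 0.49 in T cells, where that of all genes was -0.03, -0.03 and 0.14. Sham T cells numbered 23 to 83 in a sample.

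The days were then set against sham one by one. Over all cells, 12 of 30 members were called higher at day 1, 7 at day 3 and 3 at day 7, against 4.12%, 5.65% and 7.98% of all genes. These counts rested on single samples. At day 1, 0 were called without sham 2, sham 3, treat day 3, treat day 7 or any 1 of the ctrl samples (15 to 18 at an unadjusted p under 0.05), where at most 0.0178% of all genes were called either. There were 2 without treat day 1 and 16 without sham 1. The 7 of day 3 became 0 to 2 without sham 2, sham 3 or a graft of day 3 or 7, and 10 or 11 without sham 1 or a graft of day 1. The 3 of day 7 became 0 to 2 without sham 2, sham 3 or a graft of day 3 or 7, 6 without sham 1 and 9 without a graft of day 1. Without sham 1, 11.0%, 14.8% and 19.5% of all genes were called at days 1, 3 and 7. The 6 of 30 members at day 7 were near that share. Without a graft of day 1, 4.97% or 5.01% were called at day 3 and 7.7% or 7.76% at day 7. Without sham 2, sham 3 or a graft of day 7, 0.316% to 1.24% were called at day 3. Without sham 2, sham 3 or a graft of day 3, 1.06% to 4.92% were called at day 7. With DESeq2, 15, 13 and 10 members were called higher and 0, 1 and 1 lower, against 21.5%, 21.8% and 25.2% of all genes. With library size in place of TMM, 0 were called at day 1 (18 at an unadjusted p under 0.05), 3 higher and 1 lower at day 3, and 2 higher and 1 lower at day 7, against 0.0182%, 4.05% and 8.04% of all genes. Within cell types, 50 of 186 pairs were called at day 1 (49 higher, 1 lower), 17 at day 3 (all higher) and 6 at day 7 (5 higher, 1 lower), against 10.7%, 2.17% and 2.92% of all pairs. The day 7 counts, 3 of 30 members over all cells and 6 of 186 pairs, were near the shares of all genes and pairs. These comparisons share the sham samples. Each day rests on 1 ctrl and 1 treat sample.

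At day 1, BEC had 14 of 30 members called higher, against 18.2% of all genes in BEC called at that day. Pgk1 had a log2 fold change of 3.67 (SE 0.43, adjusted p = 0.00755), Ldha of 2.502, Tpi1 of 2.23, Slc2a1 of 2.20 and Pgam1 of 2.02. Members not called over all days joined them, namely Pkm at 1.64, Gys1, the glycogen synthase, at 1.51, Pgm1 at 1.40 and Pfkl at 1.30. In each, ctrl day 1 lay far above sham and treat day 1 only a little. Pfkl was at 190 CPM in ctrl, 45.1 in treat and 35.0 to 43.0 in sham, and Pkm at 88.5, 22.7 and 12.8 to 18.3. Gys1 was at 26.9, 6.99 and 4.16 to 6.08 CPM, and Pgm1 at 57.8, 17.9 and 9.99 to 14.0. Without 1 sample, Pfkl fell as low as 0.38. In these 9 fits it was called in 2, Pkm and Gys1 in 3 and Pgm1 in 5. Slc16a3 in treat day 1 lay within the sham range. Fibroblasts had 16 of 29 called, against 33.6% of all genes in fibroblasts. With library size, 10 were higher and 1 lower in BEC and 12 higher and 3 lower in fibroblasts, against 20.6% and 33.9% of all genes. In fibroblasts, Slc16a3 had a log2 fold change of 3.69, Ldha of 2.76 (SE 0.311, adjusted p = 0.000902), Tpi1 of 2.71, Slc2a1 of 2.58 (SE 0.231, adjusted p = 0.000556) and Pfkl of 2.24. The value of Slc16a3 rested on ctrl day 1 at 33.4 CPM, as treat day 1 at 0.625 CPM lay within the sham range of 0.246 to 1.31 CPM. Pdk4 was the member called lower, at -2.34, with 5.22, 0.844 and 1.77 CPM in sham and 0 and 0.429 CPM at day 1. Monocytes had 9 of 27 members called and EC 8 of 25, against 6.82% and 6.84% of all genes in these types. VSMC had 2 of 26 (Eno1 and Pgk1) and macrophages 1 of 27 (Pgk1), against 1.39% and 0.133%. After subtraction of the empty-barcode profile, Pgk1 in macrophages turned from 1.61 to -0.62 on the log2 scale (SE 1.53, adjusted p = 0.849), and 0.0% of all genes were called there. VSMC then had Eno1 (0.755% of all genes), EC 5 of 24 members (5.89%) and monocytes 4 of 27 (2.72%). T cells had 0 of 22 by edgeR and by DESeq2, with 4 at an unadjusted p under 0.05, against 0.275%. In EC, Slc16a3, Tpi1, Pgk1, Eno1, Pkm, Ldha, Aldoa and Pgam1 had log2 fold changes of 1.08 to 2.40. That of Slc16a3 in EC rested mainly on ctrl day 1 at 37.8 CPM. Treat day 1 at 5.40 CPM lay just above the highest sham sample at 5.01 CPM. The sham EC held 3, 3 and 9 UMIs of Slc16a3. The 9 monocyte calls include Gys1, which had 0 UMIs in sham, entered the test through the grafts and was at least 1.97-fold above the floor of 3 UMIs over the group. The count of pairs at day 1 was 14 without ctrl day 1, 26 without treat day 1, 23 without sham 2 and 21 without sham 3, where 2.54%, 4.08%, 4.53% and 4.34% of all pairs were called.

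At day 3, the calls were Hk3, Pgk1, Pgam1 and Ldha in BEC, Pgk1 and Ldha in T cells, Hk3 in fibroblasts, Hk3, Pgk1 and Eno1 in macrophages, and Hk3, Gpi, Pfkl, Pgk1, Pgam1, Eno1 and Ldha in monocytes. EC and VSMC had none by edgeR, with 4 and 2 members at an unadjusted p under 0.05 and 1 and 0 called by DESeq2. Of the Hk3 calls at day 3, that in BEC was at least 8.88-fold above the floor and that in fibroblasts rested on 18 UMIs against 1 in sham. In both types Hk3 entered the test through the grafts. The 17 pairs became 36 without sham 1, 2 without sham 2, 3 without sham 3, 11 without ctrl day 3 and 1 without treat day 3, where 7.11%, 0.485%, 0.35%, 1.41% and 0.555% of all pairs were called. At day 7, 4 of the 6 pairs were Hk3, in BEC, fibroblasts, macrophages and monocytes. In BEC and fibroblasts, with 0 and 1 UMIs in sham, Hk3 entered the test through the grafts. It was at least 10.6-fold above the floor of 3 UMIs in BEC, and its ratio in fibroblasts was 35.3 (exact 95% interval 5.23 to 1511 for counting error only), from 12 UMIs at day 7. The others were both Ldhb, which was lower in BEC (log2 fold change -0.81, SE 0.157, adjusted p = 0.0369) and higher in T cells (log2 fold change 1.43, SE 0.359, adjusted p = 0.0209). With library size in place of TMM, 4 of 186 pairs were higher and 0 lower at day 7, under the 2.8% of all pairs. After subtraction of the empty-barcode profile, 3 pairs were called at day 3, all in BEC, and 2 at day 7, 1 each in macrophages and T cells, against 1.11% and 1.26% of all pairs. The 6 pairs became 15 without sham 1 (7.01% of all pairs), 2 without sham 2, sham 3 or treat day 7 (0.935%, 0.863% and 0.724%), and 3 without ctrl day 7 (0.389%).

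**Figure D3:**
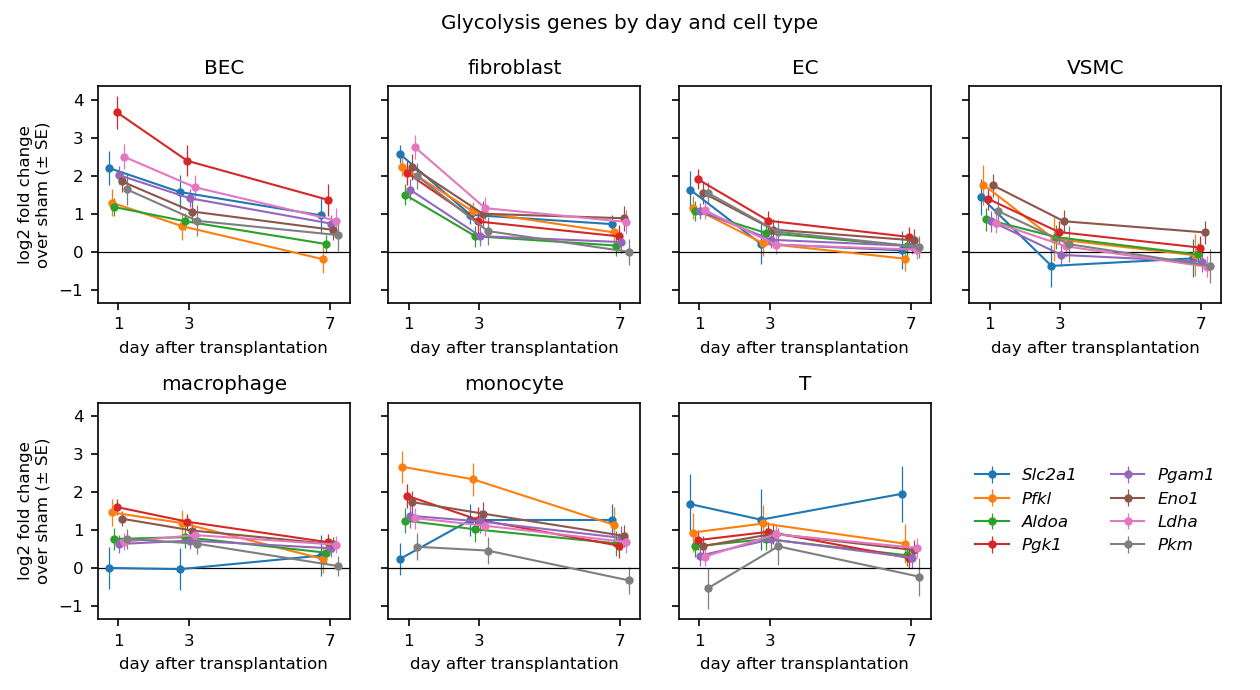
Log2 fold change over sham (points, with SE) of 8 members at days 1, 3 and 7 in 7 cell types, both arms together. In BEC, Pgk1 stood at 3.67 at day 1 and 2.39 at day 3, while Hk3 in macrophages stood at 3.26 at day 3 and 3.41 at day 7.

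The change with time was also tested among the grafts themselves. Between day 7 and day 1, 31 of 272 pairs were called, 3 higher and 28 lower at day 7, against 8.38% of all pairs, and over all cells 1 of 30, against 2.83% of all genes. That member was Gys1, which was at 20.2 and 8.64 CPM at day 1 and 4.92 and 3.87 CPM at day 7 in ctrl and treat (log2 fold change -1.59, adjusted p = 0.0428). Fibroblasts had 12 of 29 members lower, against 29.0% of all genes in fibroblasts, led by Pkm at -1.999, Ldha at -1.97 (adjusted p = 0.00516), Slc2a1 at -1.85 (adjusted p = 0.00191) and Pfkl at -1.73. BEC had 8 of 30 lower and 1 higher, against 15.5% of all genes in BEC, among them Pgk1 at -2.31 (adjusted p = 0.0263), Ldha at -1.68 and Ldhb at -0.84, and Hk3 higher at 2.499. Hk3 rested on 7 and 4 UMIs at day 1 and 18 and 26 at day 7 in ctrl and treat. It stayed called in 1 of the 9 fits without 1 sample. With library size, 3 were lower and 1 higher in BEC, against 13.2% of all genes, and Pfkm, Pfkfb2, Pfkfb3, Slc16a3 and Pgm2 changed sign. After subtraction of the empty-barcode profile, 4 were lower (Pgk1, Ldha, Pgam1 and Ldhb) and 0 higher, against 9.8% of all genes. In monocytes, with 5 of 27 called against 10.1% of all genes, Aldoc, Pfkl, Pgk1 and Pdk1 were lower, at log2 fold changes of -2.46, -1.53, -1.31 and -1.19, and Ldhb was higher at 3.41, with 1.63 and 1.20 CPM at day 1 and 8.23 and 21.2 CPM at day 7. After subtraction none of the 4 lower calls was left, Pgk1 turned to 0.80 (adjusted p = 0.89), and Ldhb was the 1 member of 27 called, against 4.3% of all genes. Under the alternatives, subtraction among them, Aldoc lay at -2.78 to -1.45, Pfkl at -1.67 to -1.39 and Pdk1 at -1.37 to -0.89. In EC, Pgk1 and Pkm were lower, 2 of 25 against 4.11% of all genes. In DC, where 3 of 25 were called against 13.0% of all genes, Eno3 was at 334 and 141 CPM at day 1 and at 27.8 and 23.7 CPM at day 7 (log2 fold change -3.04, SE 0.371, adjusted p = 0.000202), Pfkfb3 was lower at -1.28 and Hk3 higher at 2.49. The DC of day 1 had 37.5% and 73.2% of their UMIs estimated from the profile of empty barcodes in ctrl and treat, and after its subtraction 3 members were called in DC, all higher, against 2.92% of all genes. Under the alternatives, subtraction among them, the log2 fold change of Eno3 in DC lay at -3.59 to -2.82 and that of Pfkfb3 at -1.65 to -1.03. The fit of DC held the grafts alone, without replicates of any arm and day, so its p-values do not measure a spread between like samples. The 31 pairs became 57 without sham 1 (12.7% of all pairs), 20 without sham 2 (5.92%) and 11 without ctrl day 1 (3.12%). Without ctrl day 7 they were 4 of 280, near the 1.45% of all pairs.

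The comparison of treat with ctrl asked whether the raised arterial flow went with a different level of these genes. It called 0 of 30 members over all cells and 0 of 272 pairs with edgeR, against 0.0% of all genes and 0.0406% of all pairs. At an unadjusted p under 0.05 there were 13 members over all cells and 66 pairs. With 1 sample per arm and day, the fit had 4 residual degrees of freedom. Over all cells, 25 of 30 members had a negative log2 fold change of treat over ctrl, with a median of -0.54 against 0.03 for all genes, and 19 of 30 were lower in treat than in ctrl on all 3 days, against 14.2% of all genes.

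The same count was taken in each cell type. Members lower in treat on all 3 days numbered 17 of 30 in BEC (17.7% of all genes), 15 of 29 in fibroblasts (20.2%), 16 of 26 in neutrophils (13.5%) and 13 of 27 in monocytes (16.4%). They numbered 10 of 27 in macrophages (15.9%), 8 of 25 in EC (17.2%), 8 of 26 in VSMC (16.2%) and 7 of 25 in DC (14.2%). In the lymphocytes they were 3 of 17 in B cells (12.9%), 3 of 18 in NK cells (12.8%) and 1 of 22 in T cells (11.8%), near or under the share of all genes.

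Members higher in treat on all 3 days were 2 of 30 over all cells (15.3% of all genes), 3 of 30 in BEC (23.8%), 2 of 29 in fibroblasts (19.8%), 2 of 26 in neutrophils (14.4%) and 1 of 27 in monocytes (15.6%). They were 4 of 27 in macrophages (15.2%), 0 of 25 in EC (18.9%), 1 of 26 in VSMC (19.2%) and 3 of 25 in DC (16.0%). T cells had more members higher than lower, with 3 of 22 (13.2%), B cells had as many, with 3 of 17 (15.3%), and NK cells had 1 of 18 (16.1%).

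None of the single estimates passed the adjustment. Slc16a3 in fibroblasts, whose values are given above, had a log2 fold change of -4.57 (adjusted p = 0.0875), the smallest adjusted p among the 272 pairs. Pfkl in fibroblasts was at 102, 41.7 and 21.3 CPM in ctrl and at 27.8, 13.4 and 12.0 CPM in treat, a log2 fold change of -1.47 (adjusted p = 0.117). In BEC, Slc16a3 and Slc2a1 had log2 fold changes of -2.51 and -1.97 (adjusted p = 0.325 for both), with every treat sample below every ctrl sample. Over all cells, Slc16a3 had a log2 fold change of -1.76 (SE 0.493), Pgk1 of -1.18 (SE 0.408), Slc2a1 of -1.06 (SE 0.393) and Ldha of -0.75 (SE 0.176), each with an adjusted p of 0.976. Ldhb had the opposite sign, 0.58 (SE 0.155, adjusted p = 0.976), with 46.7, 32.0 and 54.7 CPM in ctrl and 63.3, 56.9 and 76.5 CPM in treat. Neutrophils, which have the highest level of Slc16a3, were at 409, 300 and 305 CPM in ctrl and 390, 242 and 219 CPM in treat. With DESeq2 in place of edgeR, Ldha was called over all cells, and 10 members in BEC and 8 in fibroblasts were called lower in treat, against 0.273%, 1.72% and 1.21% of all genes. Taking each library as a sample called 7 in BEC and 2 in fibroblasts, against 0.808% and 0.0271%, and libraries of 1 sample are not independent. The share of neutrophils was 27.0%, 32.0% and 7.77% of the cells in ctrl and 12.1%, 7.34% and 3.66% in treat, and its part in the sums over all cells was not tested. Within BEC, macrophages and monocytes, the arms also drew on different shares of the clusters on single days, as given above. The part of this was not tested.

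**Figure D4:**
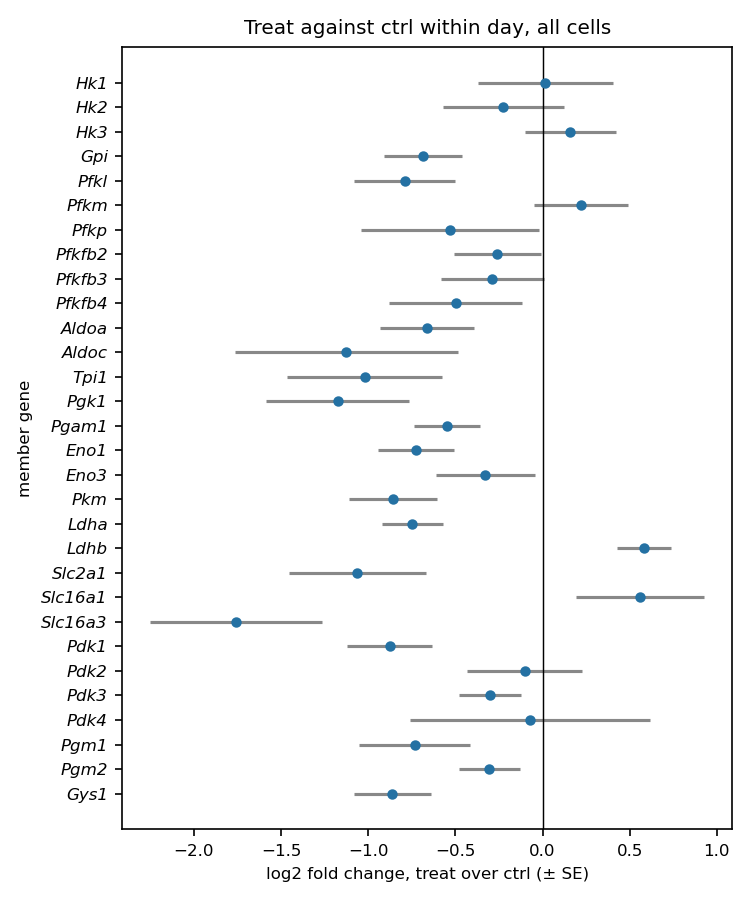
Log2 fold change of treat over ctrl (points, with SE) for the 30 members tested over all cells. 25 members lie left of 0, Slc16a3 farthest at -1.76, and Ldhb lies right of 0 at 0.58, with none called by edgeR.

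Shares of UMIs within isoform families do not depend on the scaling between samples. For 33 families and cell sets, 0 shares differed between grafts and sham in a two-sided exact permutation test over samples after Benjamini-Hochberg adjustment (8 at an unadjusted p under 0.05). With 6 grafts against 3 sham samples the smallest p that 84 relabelings allow is 0.0238, which became an adjusted p of 0.112. Ldhb made up 17.0%, 14.1% and 19.9% of the Ldha and Ldhb UMIs over all sham cells. It made up 2.09%, 2.39% and 5.46% in ctrl days 1, 3 and 7, and 5.99%, 5.95% and 10.7% in treat. The mean was 5.42% ± 3.11 (SD, n = 6) in the grafts and 17.0% ± 2.9005 (SD, n = 3) in sham (exact permutation p = 0.0238, adjusted p = 0.112), with no overlap. In BEC the share was 24.2%, 14.2% and 16.0% in sham and 1.75% to 10.1% in the grafts (exact permutation p = 0.0238, adjusted p = 0.112). In fibroblasts it was 20.8% to 35.5% in sham and 3.81% to 26.4% in the grafts, with overlap (exact permutation p = 0.0476, adjusted p = 0.196). EC at 13.5% to 28.4% in sham and 8.45% to 23.5% in the grafts, and VSMC at 16.4% to 22.5% and 8.999% to 18.7%, overlapped. The share of Hk2 and Hk3 among hexokinase UMIs was 97.2% ± 0.309 (SD, n = 6) in the grafts and 91.6% ± 8.32 (SD, n = 3) in sham over all cells, where sham 1 at 82.0% was far below sham 2 and sham 3 at 96.5% and 96.3%. Aldoc made up 1.61% ± 0.548 (SD, n = 6) of the aldolase UMIs in graft fibroblasts and 2.52% ± 0.336 (SD, n = 3) in sham fibroblasts, without overlap. Slc16a3 made up 80.5% ± 12.0 (SD, n = 6) of the Slc16a1 and Slc16a3 UMIs over all graft cells and 70.6% ± 16.9 (SD, n = 3) in sham, with overlap, and in ctrl alone it was 96.5%, 93.4% and 81.5% against 70.4%, 71.0% and 70.3% in treat. The share of Pfkp did not separate grafts from sham in any of its cell sets, and that of Slc2a3 was at or near 0.

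**Figure D5:**
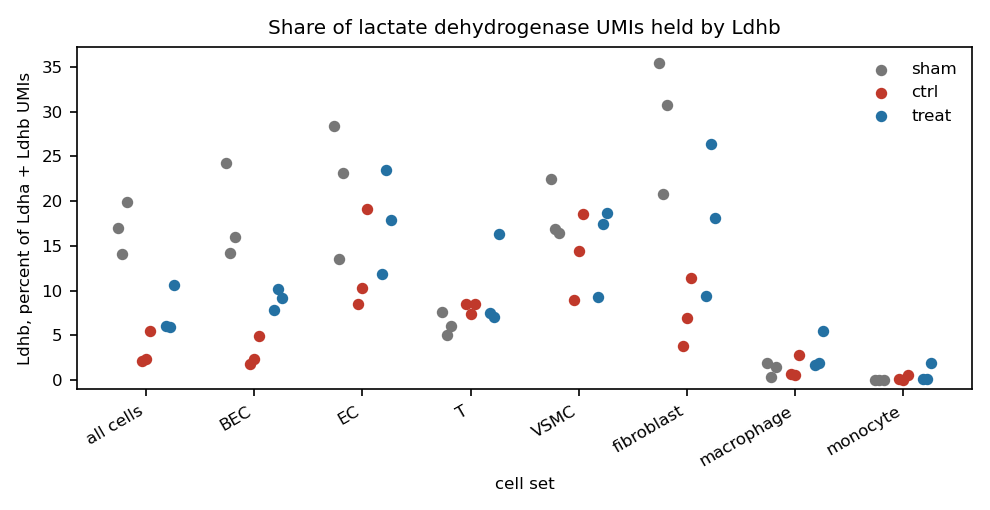
Ldhb as a percent of Ldha and Ldhb UMIs, 1 point per sample, for all cells and each cell type with enough UMIs (sham grey, ctrl red, treat blue). Over all cells the grafts lie at 2.09% to 10.7%, below the sham samples at 14.1% to 19.9%, and in T cells and macrophages they overlap sham.

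Genes around the pathway were counted from 10 lists, over all cells and in grafts against sham, where 17.7% of all genes were called, 9.09% higher and 8.59% lower. The counts of 1 of 12, 1 of 13 and 1 of 19 given next lie under the share called higher. Of the pentose phosphate pathway, which draws off glucose for NADPH and ribose, 5 of 9 tested genes were higher and 0 lower. Taldo1 was at 279 to 362 CPM in sham and 443 to 1079 CPM in the grafts (log2 fold change 1.10, adjusted p = 0.0128), and Tkt had a log2 fold change of 0.64. Of the other sugar transporters, 1 of 12 was higher: Slc2a6, a carrier of myeloid cells (log2 fold change 2.62, adjusted p = 0.0189). Of gluconeogenesis, the reverse path, 2 of 7 were lower, G6pc at -2.04 and Fbp1 at -1.60, both at 1.12 CPM or lower in every sample. Of the list of isoforms and side steps outside the members, 2 of 14 were higher. They were Gpd2 at 0.56 and Pgam5, a protein phosphatase rather than a glycolytic mutase, at 0.51. Slc16a7, a further lactate and pyruvate carrier, was lower at -0.64. Of glycogen metabolism, 2 of 14 were higher (Gyg1 at 0.99 and Phkg2 at 0.58). Of the hypoxia-inducible factor, its sensors and its other targets, 1 of 19 was called. It was Hif1a itself, with 66.4 to 71.8 CPM in sham and 119 to 187 CPM in the grafts (log2 fold change 1.16, SE 0.122, adjusted p = 0.0096). None of the 10 genes of pyruvate entry into mitochondria and none of the 14 regulators of glucose use was called by edgeR, with 1 and 2 at an unadjusted p under 0.05. Of the genes known to respond to tissue dissociation and stress, 4 of 16 were lower and 0 higher, among them Hspb1 at -0.94 and Egr1 at -0.84. Of the cell cycle genes, 1 of 13 was higher, Rrm2 at 1.81. For treat against ctrl, edgeR called 0 genes of these lists, with 0 to 3 genes of a list at an unadjusted p under 0.05.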

How the data were processed

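Bile duct cells of 9 rat samples had been sequenced with 10x Genomics chemistry after enzymatic digestion, red cell lysis and removal of dead cells. The authors deposited 1 raw matrix per library, with UMI counts per gene and barcode and no normalization. The matrix headers and the processing notes of the submitters name different releases of Cell Ranger, the notes giving version 5.0.1 together with Seurat 3.2.0, and the genome build is not given in the sources used here. Counts come from the 3′ ends of transcripts.

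Barcodes with 400 to 6000 genes, at most 25% mitochondrial and at most 3% hemoglobin UMIs were kept, and doublets were removed by simulation at 7.5% per library. The 139805 cells of 20 libraries were clustered without the members (2000 variable genes, 30 principal components, 20 neighbours, Leiden resolution 0.9) into 38 clusters, of which 12, with 18.9% of the cells, stayed unnamed. Names came from marker lists. UMI counts were summed per sample and cell type (at least 20 cells) and tested with edgeR 4.0.16 (quasi-likelihood test, TMM scaling, filterByExpr) in R 4.3.3. The fit held sham, each day of the grafts and the arm, 5 coefficients in all with 4 residual degrees of freedom over all cells, with Benjamini-Hochberg adjustment across every gene of a fit. A member was called at an adjusted p under 0.05. In 7 types the fit used 9 samples, and in B cells, DC, NK cells and neutrophils it used the 6 grafts. In those fits of the grafts alone no samples were replicates. Their residual spread came only from how the difference between the arms varied over the days. Lymphatic EC, goblet, plasma, mast and exocrine pancreas cells were not tested. Shares within isoform families (at least 20 UMIs) were compared by a two-sided exact permutation test over samples. The fits were tested on simulated counts.

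The alternatives were library size scaling, DESeq2 1.42.0, no filter on low counts, libraries as samples, no doublet removal, no hemoglobin limit, removal of free RNA as estimated from empty barcodes (at most 100 UMIs), no day term, ctrl alone, Leiden resolution 2 and leaving out each sample. The members, lists and tests were chosen with earlier results of these data known. All members are named, and of each surrounding list up to 2 called genes in each direction with the largest change, apart from some that are not reported here. Totals of 9319161 to 193267997 UMIs per sample set the counting precision, and the bound on a gene at 0 covers counting error only.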

Additional observations from a re-analysis of the deposited data

Results flagged for a closer look

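Some members differed between the day 7 and the day 1 grafts by edgeR's test of the difference itself. Over all cells and in DC their share was near or under that of all genes. The difference was called for 1 of 30 members over all cells (Gys1), against 2.83% of all genes. It was called for 9 of 30 in BEC (15.5% of all genes), 2 of 25 in EC (4.11%), 12 of 29 in fibroblasts (29.0%), 5 of 27 in monocytes (10.1%) and 3 of 25 in DC (13.0%).

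In 1 member, Pfkfb4, all 6 grafts lay above all 3 sham samples in 1 cell type, monocytes, and below all of them in another, macrophages. The difference between the cell types was not tested. In monocytes the 3 sham samples had 0 UMIs of Pfkfb4. A floor of 3 UMIs over the sham group is 5.19 unscaled CPM, above the 1.63 to 2.31 TMM-scaled CPM of the graft monocytes, so no direction can be read in monocytes at this depth.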

How the results depend on the processing

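Among called single results, the call was lost more often than the direction. These results were picked because they were called, and most of the fits share samples, so a kept direction was likely beforehand. Among all tested members, library size in place of TMM turned the sign of 6 in macrophages, day 7 against sham. It turned the sign of 5 in BEC, day 7 against day 1. Among 178 called single results and 2999 values under the alternatives, 1989 kept their direction and call, 1008 kept the direction only, and 2 changed sign. Both changed sign after the profile of empty barcodes was subtracted: Pgk1 in macrophages, day 1 against sham, was then at -0.62 and Pgk1 in monocytes, day 7 against day 1, at 0.80 on the log2 scale.

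Beside each count stands in brackets the share of all genes, or of all gene and cell type pairs, called in the same fit. Over all cells, grafts against sham, 15 members were called (17.7%), 6 with ctrl alone (3.33%) and 0 to 15 without 1 sample (0.0% to 25.3%). Of pairs in this contrast 36 were called (7.67%), 23 with libraries as samples (5.3%), 14 after subtraction (4.62%), 6 with no day term (2.63%), 2 with ctrl alone (0.87%), 19 at resolution 2 (7.26%) and 3 to 47 without 1 sample (1.21% to 12.7%). Treat against ctrl called 0 members over all cells (0.0%) and 1 with DESeq2 (0.273%), and 0 pairs (0.0406%), 18 with DESeq2 (0.487%), 10 with no filter (0.38%), 9 with libraries as samples (0.19%) and 0 to 2 without 1 sample (0.0208% to 0.255%). The 50 pairs of day 1 became 33 at resolution 2 (9.87%) and 14 to 64 without 1 sample (2.54% to 17.3%). The 17 pairs of day 3 became 37 with DESeq2 (6.23%), 29 with no filter (2.84%), 7 with libraries as samples (1.97%), 3 after subtraction (1.11%), 7 at resolution 2 (1.96%) and 1 to 36 without 1 sample (0.35% to 7.11%). The 6 pairs of day 7 became 15 with DESeq2 (5.99%), 10 with no filter (3.59%), 2 after subtraction (1.26%), 2 of 160 at resolution 2 (3.11%, above the members' share) and 2 to 15 without 1 sample (0.389% to 7.01%). The 31 pairs of day 7 against day 1 became 55 with DESeq2 (9.93%), 66 with no filter (6.08%), 74 with libraries as samples (19.3%), 18 at resolution 2 (6.43%) and 4 to 57 without 1 sample (1.45% to 12.7%). The cause was not tested. With libraries as samples, libraries of 1 sample are not independent. Without a graft sample, its day rests on the other arm. Treat and ctrl were paired by day through the day term of the fit. For grafts against sham, no paired analysis was possible because the labels tie no sham sample to a graft sample.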
